A study of Mus musculus with 12 samples.

Results

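Heparan sulfate is a long sugar chain carried by proteoglycans of the cell surface and matrix. The enzymes described here polymerise it (Ext1, Ext2), replace acetyl by sulfate groups on its glucosamine (Ndst1, Ndst2), add sulfate at the 2-O position of its uronic acid (Hs2st1) or at the 6-O position of its glucosamine (Hs6st1, Hs6st2, Hs6st3), or remove 6-O sulfate again outside the cell (Sulf1, Sulf2). Of these 10 genes, Hs6st2 was chosen by its high signal in R+, and the others were added as its pathway. The probe table assigned 22 of the 45101 probe sets to 9 of them. No probe set for Ndst1 was used here, so it was not analysed. Testing required a signal above 107, which is the median over the table, on 3 arrays or more. This left 15 member probe sets of 8 genes among 26061 probe sets.

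The samples were 12 Affymetrix Mouse 430 2.0 arrays of cells sorted from mouse embryos at E12.5, all carrying ePet-EYFP, a transgene that marks serotonin neurons with a yellow fluorescent protein (YFP) through a Pet-1 enhancer. The groups were R+ (rostral, YFP-positive), R- (rostral, YFP-negative), C+ (caudal, YFP-positive) and C- (caudal, YFP-negative), with 3 biological replicates of 200000 cells each. The rostral piece ran from the mesencephalic to the pontine flexure and the caudal piece from there to the spinal cord. The negative populations are whatever else the dissected tissue held, although the labels call them neurons. Values are MAS5 signals on a linear scale, on which the array medians lay between 93 and 121. Fold changes are differences of log2(signal + 10) ± SE, the population named first minus the other, and understate changes of dim genes. Adjusted p-values are limma's, by the Benjamini-Hochberg method over all 26061 probe sets, and a probe set was called at an adjusted p under 0.05.

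Heparan sulfate is made in the Golgi on core proteins, and sulfation is uneven along the chain. Runs of sulfated sugars bind secreted signals such as FGF, Wnt, Hedgehog and Slit proteins. In the embryonic nervous system the chain is known for its part in patterning and axon guidance. The sulfatases trim 6-O sulfate at the cell surface and so change which ligands a finished chain can hold.

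Serotonin neuron markers matched the sort. The summed signal of 8 serotonin neuron genes, among them the synthesis enzyme Tph2 and the transporter Slc6a4, was 77382 to 84890 in R+, 4718 to 5097 in R-, 52816 to 57416 in C+ and 2258 to 3350 in C-. For 6 glutamate, GABA and glycine neuron genes the sum was 1133 to 1352 in R+ and 8860 to 11899 in R-. It was 3320 to 4059 in C+ and 13364 to 14846 in C-. In C+ against C- 5 of these genes were called lower and 1 was not. Gad1 read 1836, 2182 and 2357 in C+ against 2270, 2408 and 2441 in C-. The sum of 7 neural progenitor genes was 18379 to 20033 in R+, 43286 to 53974 in R-, 19165 to 25139 in C+ and 45658 to 47450 in C-. For 4 measured red blood cell genes the sums were 8693 to 15580 in R+, 45070 to 59141 in R-, 4792 to 8626 in C+ and 40427 to 44926 in C-. Genes of neurons in general (6) were bright in the negative populations too. They summed to 69813 to 83030 in R+ and 57379 to 72618 in R-. The sums were 61829 to 79471 in C+ and 67494 to 79329 in C-, so these ranges overlapped. The 3' to 5' ratio of the beta-actin control, which rises as RNA is degraded, was 2.64 to 4.39 across the 6 rostral arrays and 4.52 to 7.69 across the 6 caudal ones, so that it parted the domains. Among endothelial markers 3 of 6 stayed at or under the median of all values on every R+ array and 3 on every R- array. It was 2 of 6 on every C+ array and 1 on every C- array. Their sums were 661 to 711 in R+, 649 to 742 in R-, 484 to 658 in C+ and 762 to 1350 in C-. The 6 macrophage markers summed to 995 to 2552 in R+ and 923 to 1218 in R-. In C+ the sum was 561 to 713 and in C- 703 to 952. Of 4 tested, 1 was called higher in R+ against R-, and 1 lower in C+ against C-. In sorted bulk RNA, fewer cells of a type and less RNA per cell cannot be told apart. The part of these markers in the results below was not tested.

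Hs6st2 encodes a 6-O-sulfotransferase that is prominent in the developing brain. RefSeq (GRCm38.p6) gives it 2 starts, both on the minus strand of chromosome X. They are printed with 250 bases before and 50 after each start, because the height of Hs6st2 in R+ chose the gene and its starts differ in base composition. Capitals mark the word TATAAA.
Hs6st2, chrX:51681553-51681852: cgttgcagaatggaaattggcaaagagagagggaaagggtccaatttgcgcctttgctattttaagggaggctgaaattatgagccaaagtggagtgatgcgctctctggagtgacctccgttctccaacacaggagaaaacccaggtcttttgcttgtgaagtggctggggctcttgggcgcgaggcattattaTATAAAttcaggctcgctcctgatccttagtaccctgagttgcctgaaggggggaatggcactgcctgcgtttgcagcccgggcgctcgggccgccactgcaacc
Hs6st2, chrX:51680428-51680727: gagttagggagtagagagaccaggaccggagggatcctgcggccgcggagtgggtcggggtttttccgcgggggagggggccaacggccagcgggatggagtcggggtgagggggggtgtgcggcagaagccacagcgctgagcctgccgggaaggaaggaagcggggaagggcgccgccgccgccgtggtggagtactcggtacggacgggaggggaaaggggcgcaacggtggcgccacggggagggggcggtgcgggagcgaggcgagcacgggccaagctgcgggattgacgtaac

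The first window is 53.7% G and C with 12 CG pairs, and the second 71.7% with 33, against medians of 52.7% and 7.0 over 32851 windows of the table. TATAAA, searched on both strands, begins 55 bases before the first start and is not in the second window. It occurs in 13.6% of all windows. GATAAG (7.44% of windows), CCGGAAG (8.86%) and TAATTA (5.29%), also searched on both strands, are in neither window. The array does not tell which start was used.

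On the one Hs6st2 probe set that passed the filter (1450047_at), the signals were 1541, 1245 and 990 in R+, 474, 399 and 403 in R-, 260, 151 and 135 in C+, and 449, 356 and 303 in C-. Every R+ array lay above every other array, and every C+ array lay below every other array. The R- and C- arrays overlapped. The mean was 1259 ± 276 for R+, 425 ± 42.2 for R-, 182 ± 68.0 for C+ and 369 ± 73.9 for C- (SD, n = 3 each). The order of levels was thus R+, then R- and C- together, then C+.

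The height in R+ chose this gene, so its differences with R+ are given without a test. They were 1.52 ± 0.25 against R- and 2.76 ± 0.25 against C+, or 2.88-fold and 6.76-fold. C+ against C- holds no R+ array, and there Hs6st2 fell by 1.02 on the log2 scale (SE 0.25, adjusted p = 0.0215), to 0.493 of C-. If the height in R+ was judged against C+, the choice favoured low C+ signals, so this p-value is not independent of it. Hs6st2 was lower in C+ in 3 of 3 replicate pairs (-0.77, -1.18 and -1.11), as any pairing of these non-overlapping groups must give. The call was lost under 8 of 26 alternatives: with arrays scaled to 1 median (-0.93 ± 0.32, adjusted p = 0.116), with only the groups compared (adjusted p = 0.0980), without all replicate 2 (-0.94) or all replicate 3 arrays (-0.98), and without C+ replicate 2, C+ replicate 3, C- replicate 1 or C- replicate 2, where the difference was -0.92, -0.85, -0.87 and -1.04 (adjusted p = 0.0920, 0.0922, 0.0892 and 0.0541). R- against C- gave 0.21 ± 0.25 (95% interval -0.33 to 0.75, adjusted p = 0.811), and -0.35 (adjusted p = 0.603) with the beta-actin ratio as a covariate.

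The other 3 Hs6st2 probe sets did not pass the filter. For 1420938_at and 1420939_at, designed on the same accession as 1450047_at, the highest signals on any array were 35 and 77. The fourth, 1446257_at, exceeded 107 on 1 array only, at 152 in C-. Their values lie in the dim range of the array and give no second measure of Hs6st2.

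The genes whose pattern over the 12 arrays was most like that of Hs6st2 were Pdzrn4 (Pearson r = 0.968), Nrp2 (0.967), Pcdh19 (0.950), Cdh13 (0.948) and Ppp2r2b (0.925). Nrp2, a semaphorin co-receptor, averaged 6716 for R+, 2349 for R-, 1267 for C+ and 2745 for C-. Pdzrn4 averaged 6517, 807, 438 and 1078 in the same order of populations. The R+ arrays stood apart for Hs6st2, so r rests largely on that height. The points share the arrays.

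**Figure D1:**
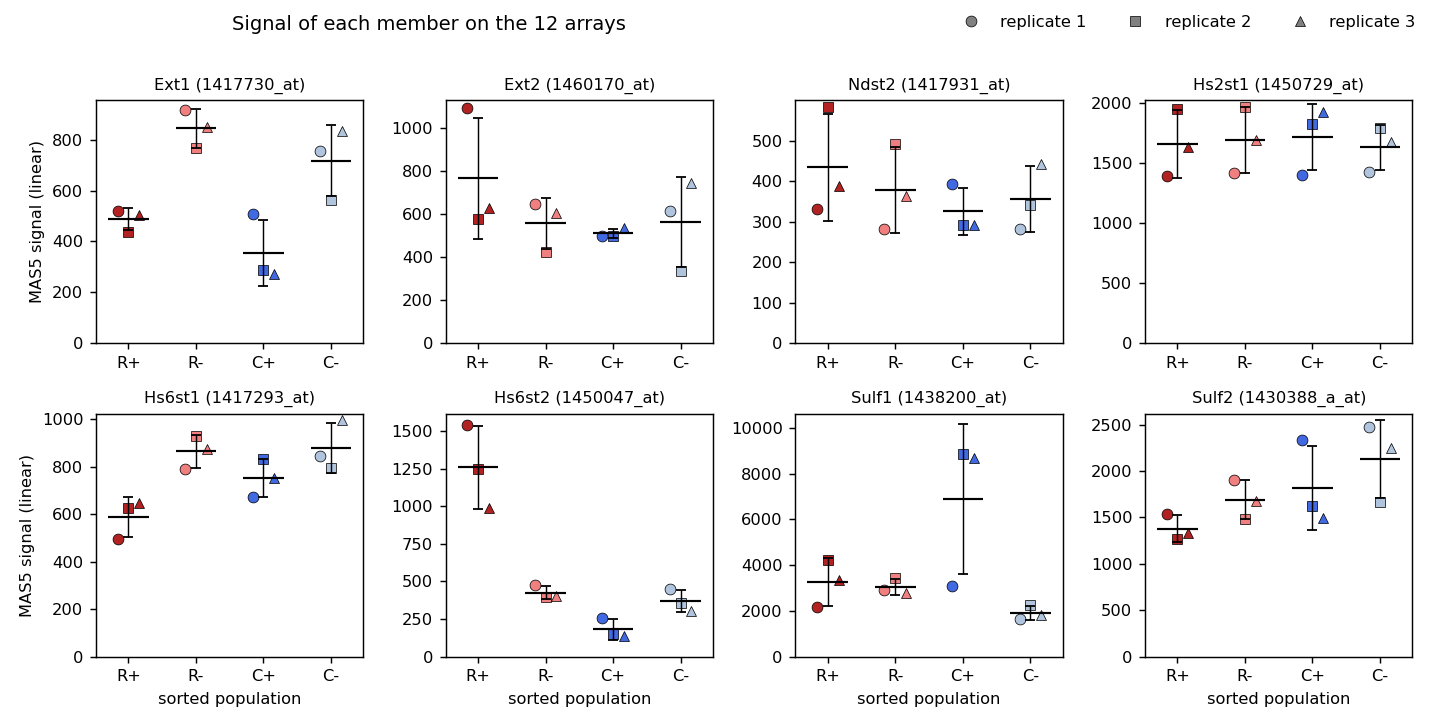
MAS5 signal (linear axis from 0) of the brightest usable probe set of the 8 measured genes, by sorted population, with a symbol per replicate number, the mean as a bar and 1 SD as whiskers (n = 3). Hs6st2 is highest on all R+ arrays and lowest on all C+ arrays, and Sulf1 reaches 8868 and 8706 on C+ replicates 2 and 3.

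Among the other sulfotransferases, Hs6st1, the broadly expressed 6-O-sulfotransferase, had signals of 494, 625 and 649 in R+ and 791, 929 and 873 in R-. These arrays did not overlap. The difference was -0.55 ± 0.16 (adjusted p = 0.0598), just outside the threshold, and it lay at 0.0102 with the replicate number as a block. In the caudal domain Hs6st1 had 672, 832 and 751 in C+ and 846, 796 and 997 in C-, which overlapped (-0.22 ± 0.16, adjusted p = 0.529). Hs6st3, the remaining 6-O-sulfotransferase, did not exceed a signal of 57 on any array and was not tested.

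Hs2st1 makes the 2-O sulfate and had 4 probe sets, all over the filter on all 12 arrays. The brightest, 1450729_at, read 1395, 1956 and 1636 in R+, 1421, 1969 and 1699 in R-, 1407, 1829 and 1925 in C+, and 1424, 1795 and 1679 in C-. Its 4 group differences ran from -0.05 to 0.07, with 95% intervals inside -0.44 to 0.46. With the beta-actin covariate its differences between the domains were 0.36 in R+ against C+ and 0.39 in R- against C- (adjusted p = 0.543 and 0.435). No Hs2st1 probe set was called in any of the 5 comparisons. Ndst2, an N-deacetylase and N-sulfotransferase, read 332, 584 and 388 in R+, 281, 492 and 364 in R-, 392, 292 and 292 in C+, and 282, 341 and 443 in C-, with overlap throughout. Its largest difference was 0.38 ± 0.27, R+ against C+ (95% interval -0.19 to 0.95, adjusted p = 0.483), and 0.84 with the beta-actin covariate (adjusted p = 0.380).

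Ext1 and Ext2 form the polymerase that lengthens the chain. Ext1 was lower in the YFP-positive cells of both domains by signal. It read 520, 437 and 503 in R+ against 918, 766 and 848 in R-, and 506, 287 and 271 in C+ against 756, 562 and 836 in C-. Neither pair of groups overlapped. In C+ against C- Ext1 fell by 1.04 on the log2 scale (SE 0.23, adjusted p = 0.0120), to 0.488 of C-. This call was lost under 7 of 26 alternatives: with arrays scaled to 1 median (-0.94 ± 0.28, adjusted p = 0.0661), with only the groups compared (adjusted p = 0.0686), without all replicate 2 (-1.08) or all replicate 3 arrays (-0.76), and without C+ replicate 2, C+ replicate 3 or C- replicate 3, which gave -0.92, -0.88 and -0.92 (adjusted p = 0.0627, 0.0568 and 0.0650). In R+ against R- the difference was -0.78 ± 0.23 (adjusted p = 0.0586). With the replicate number as a block its adjusted p was 0.00781, and all 3 pairs lay between -0.81 and -0.74. The rostral and caudal differences of Ext1 differed by 0.25 ± 0.33 (95% interval -0.45 to 0.96, adjusted p = 1).

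Ext2 did not follow Ext1. Its probe set 1460170_at read 1089, 575 and 628 in R+, 644, 421 and 604 in R-, 496, 498 and 534 in C+, and 611, 333 and 741 in C-. All R+ arrays lay above all C+ arrays, by 0.52 ± 0.30 (adjusted p = 0.373), and the other pairs overlapped. A second probe set, 1447743_x_at, passed the filter on 6 arrays spread over all populations and was too variable to use, with an interval of -2.61 to 1.17 in C+ against C-. The third Ext2 and the second Ext1 probe set did not pass.

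The sulfatase Sulf1 had the largest called differences among the members. On 1438200_at it read 2164, 4244 and 3365 in R+, 2921, 3429 and 2780 in R-, 3088, 8868 and 8706 in C+, and 1660, 2269 and 1822 in C-. On 1436319_at it read 996, 1921 and 1724 in R+, 1621, 2015 and 1836 in R-, 1568, 4259 and 4109 in C+, and 719, 956 and 750 in C-. On both probe sets C+ replicates 2 and 3 were the highest of all arrays, C+ replicate 1 was far lower, and C- had the lowest mean.

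In C+ against C- Sulf1 rose by 1.70 ± 0.34 (3.25-fold, adjusted p = 0.00596) and 1.90 ± 0.33 (3.73-fold, adjusted p = 0.00227). All C+ arrays lay above all C- arrays on both probe sets, so any pairing gives 3 of 3 pairs higher. Leaving out any single array kept both calls, and without C+ replicate 1 the differences were 2.20 and 2.37. Leaving out all 4 arrays of replicate 2 (1.57 and 1.78) or of replicate 3 (1.43 and 1.63) ended both calls. In R+ against R- the same probe sets gave 0.05 ± 0.34 and -0.29 ± 0.33 (adjusted p = 0.974 and 0.774), both with 95% intervals that hold 0.

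The rostral minus the caudal difference of Sulf1 was -1.65 ± 0.48 and -2.18 ± 0.47, below 0 in 3 of 3 replicates. Neither was called (adjusted p = 0.299 and 0.0688). With the replicate number as a block both were (adjusted p = 0.0127 and 0.000923), and without C+ replicate 1 the values were -2.15 and -2.65 (adjusted p = 0.00498 and 0.00110). In R+ against C+ Sulf1 gave -0.98 ± 0.34 and -1.01 ± 0.33 (adjusted p = 0.132 and 0.110), and 0.00786 and 0.00427 with the block. With the beta-actin ratio, which parts the domains, as a covariate they shrank to -0.23 and -0.29 (adjusted p = 0.868 and 0.823). In R- against C- it gave 0.67 ± 0.34 and 1.17 ± 0.33 (adjusted p = 0.482 and 0.130), where the block called the second probe set (adjusted p = 0.00330) and the covariate gave 1.30 and 1.77 (adjusted p = 0.183 and 0.0556). The third Sulf1 probe set, 1446416_at, did not exceed 19 on any array.

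Genes of the floor plate and ventral progenitors were, like Sulf1, higher in C+ than in C-. The summed signal of 5 such markers was 5041 to 6189 in R+, 4763 to 5177 in R-, 10884 to 12496 in C+ and 1543 to 2430 in C-. All 5 were called higher in C+ against C-, and 1 was higher and 2 were lower in R+ against R-. Shh, the floor plate morphogen, read 1526, 2863 and 2208 in R+, 2174, 2633 and 2381 in R-, 1897, 5595 and 5351 in C+, and 562, 892 and 504 in C-. As for Sulf1, C+ replicates 2 and 3 were the highest arrays and C+ replicate 1 fell among the rostral ones. Shh was picked from the marker list after its values were seen, and not all of the list shares its replicate pattern. Corin also had its highest signals in C+ replicates 2 and 3, but Nkx6-1 (7259, 3570 and 2802 in C+) and Nkx2-2 (2806, 2041 and 1763 in C+) were highest in C+ replicate 1. Foxa2 averaged 515 in C+ and was higher on all R- arrays (1503, 1189 and 1314). The mesenchyme markers, another cell type that uses Sulf1, summed to 526 to 716 in R+, 982 to 1478 in R-, 2825 to 3210 in C+ and 2379 to 3535 in C-. Of these 6 markers, 3 stayed at or under the median of the table on every R+ array and 2 on every C+ array. The C+ sum was mostly Dcn (2494, 2178 and 2364 in C+ against 502, 292 and 457 in C-), the 1 marker called higher in C+ against C-, while Col1a2, Col3a1 and Pdgfrb were called lower. The part of either cell type in the Sulf1 values was not tested.

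**Figure D2:**
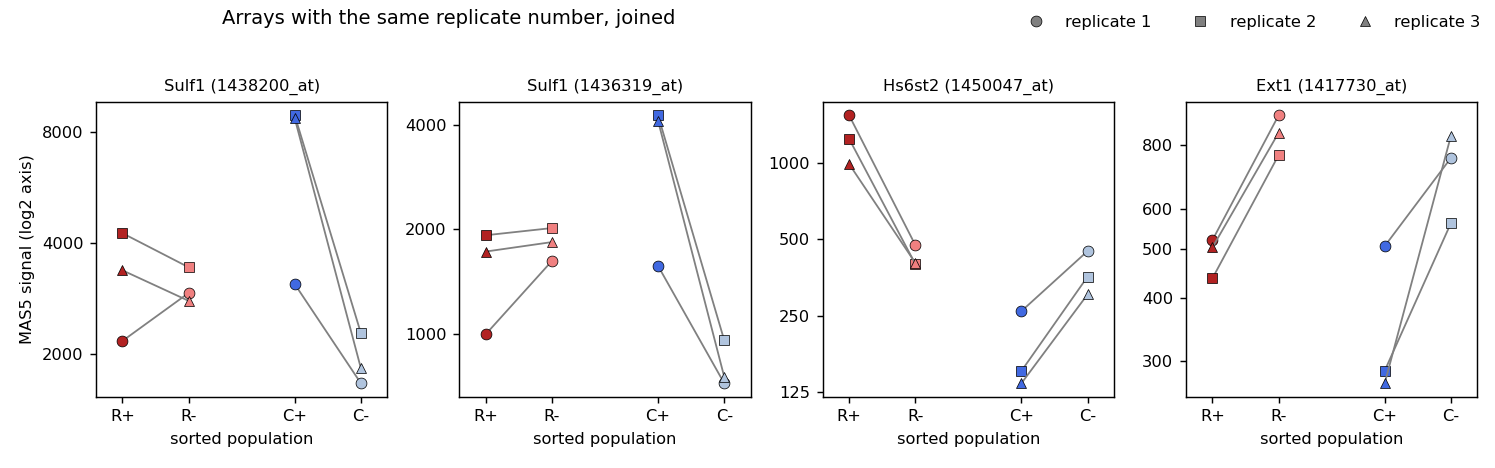
MAS5 signal (log2 axis) of both usable Sulf1 probe sets, Hs6st2 and Ext1, with lines joining YFP-positive to YFP-negative arrays of the same replicate number. Sulf1 is higher in C+ than in C- in all 3 pairs, least in replicate 1; Hs6st2 goes opposite ways in the rostral and caudal pairs; Ext1 is lower in the positive cells of all 6 pairs.

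Sulf2, the second sulfatase, had 3 probe sets. On 1430388_a_at the mean was 1380 ± 142 for R+, 1688 ± 210 for R-, 1821 ± 452 for C+ and 2128 ± 420 for C- (SD, n = 3 each). On 1442408_at all 12 arrays lay between 764 and 986. On 1447602_x_at the signals were 3854, 5207 and 4678 in R+ and 5128, 8413 and 9166 in C+. The difference between R+ and C+ was -0.38 ± 0.19, -0.01 ± 0.15 and -0.69 ± 0.21 on the 3 probe sets (adjusted p = 0.317, 0.987 and 0.0816). With the block the first and the third were called (adjusted p = 0.0484 and 0.000961) and the second was not. The beta-actin covariate gave -0.67, -0.20 and -0.20 (adjusted p = 0.338, 0.731 and 0.782). The probe sets thus disagree on Sulf2, and a name ending in _x_at marks probes that can match other transcripts.

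Some members also varied with replicate number. Replicate 1 was the highest array of all 4 groups for 3 of the 15 member probe sets (Hs6st2 1450047_at, Hs2st1 1440905_at, Sulf2 1430388_a_at). It was the lowest of all 4 groups for 4 others (Hs2st1 1422739_at and 1450729_at, Sulf1 1436319_at, Sulf2 1447602_x_at). Hs2st1 and Sulf2 therefore each had probe sets that shifted in opposite directions on the same arrays. Over all 26061 probe sets the shares were 12.8% and 15.7%.

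The count of calls among the members was small. In C+ against C- 4 of 15 member probe sets were called, 2 higher (both of Sulf1) and 2 lower (Ext1 and Hs6st2). Of all probe sets 8.2% were called there, 3.56% higher and 4.64% lower. The 4 probe sets stand for 3 genes, 2 of them are of the same gene, and 3 of 8 genes compare with 11.1% of all genes by 1 probe set each. The choice of Hs6st2 for its height in R+ may have favoured its call in C+ against C- as well. In the comparisons with R+ it was left out of the count. In R+ against R- 0 of the other 14 were called by limma, with 7.67% of all probe sets called. With the block 2 were, Hs6st1 and Ext1, and the same 2 had an unadjusted limma p under 0.05 without it.

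In R+ against C+ 0 of 14 were called and 3.78% of all, although the block called 4, both of Sulf1 and 2 of Sulf2. Before adjustment 4 were under 0.05 without the block, both of Sulf1, 1447602_x_at of Sulf2, and Ext1. In R- against C- 0 of 15 were called and 1.49% of all, 1 was under 0.05 before adjustment, and the block called 1. For the difference of differences 0 of 14 were called and 0.522% of all, 2 were under 0.05 before adjustment, and the block called 2. The median difference of the members was -0.02, 0.06, -0.14, 0.08 and -0.13 in the 5 comparisons, against 0.02, -0.02, -0.01, -0.03 and 0.01 over all probe sets. These comparisons share arrays.

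**Figure D3:**
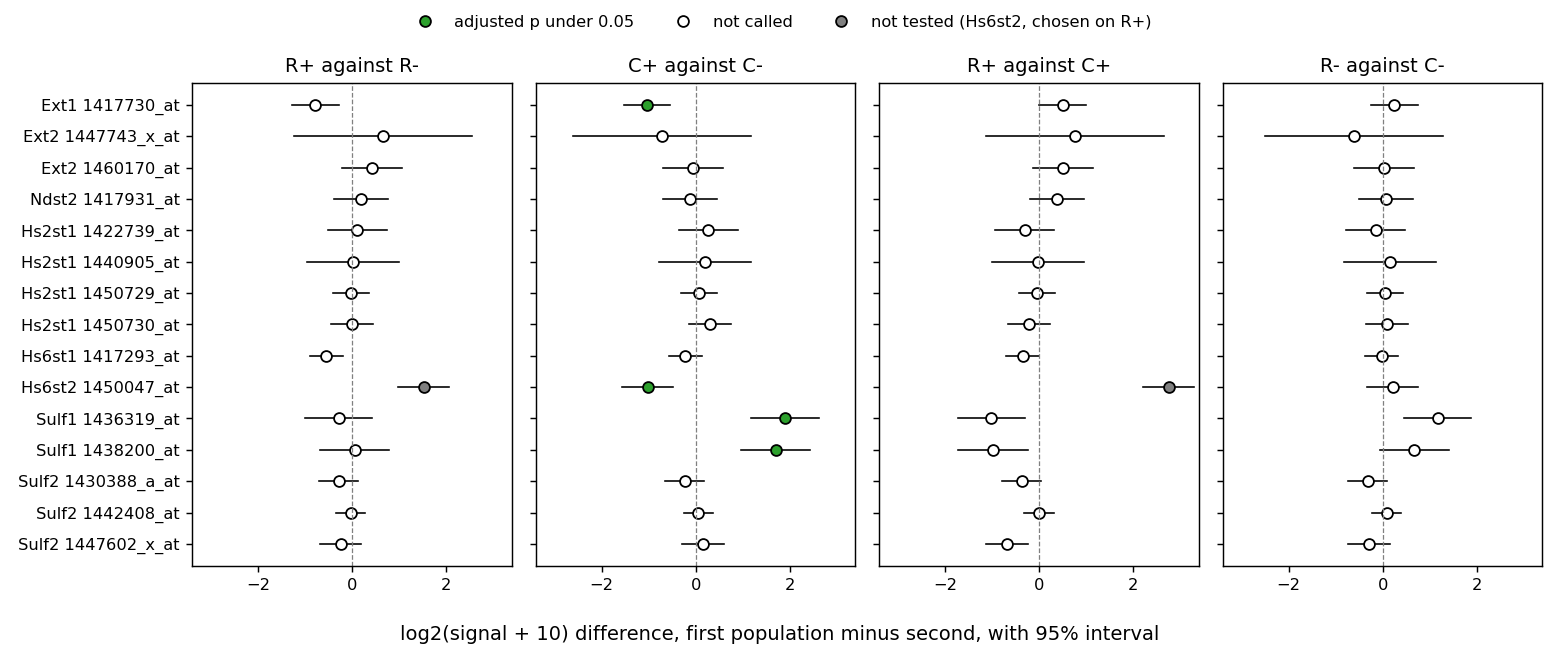
Differences of log2(signal + 10) with 95% intervals for the 15 member probe sets that passed the filter, in 4 comparisons, the first population minus the second; green points were called, white were not, and grey were not tested. The green points all lie in C+ against C-, at 1.70 and 1.90 for Sulf1 and at -1.04 and -1.02 for Ext1 and Hs6st2.

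The other genes of the pathway were counted by 1 probe set each. For the enzymes that build the linkage to the core protein, 4 of 6 genes were measured, and 1 was called, Fam20b, a xylose kinase, at 0.56 ± 0.15 in C+ against C- (adjusted p = 0.0365). That call was lost under 12 of 26 alternatives. Of 9 other measured enzymes of chain synthesis and modification, 0 were higher and 2 lower in R+ against R- (10.5% of all genes called), and 1 was higher and 2 were lower in C+ against C-. All of these were 3-O-sulfotransferases, which add a rare sulfate group. With the block the counts were 1 higher and 3 lower in either domain.

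Hs3st1 averaged 205 in R+ and 487 in R- (-1.23 ± 0.27, adjusted p = 0.0112), and 127 in C+ and 311 in C- (-1.24 ± 0.27, adjusted p = 0.00982). These calls were lost under 4 and 3 of 26 alternatives. Hs3st3b1 read 32, 32 and 26 in R+ against 177, 315 and 295 in R-, and 4, 126 and 33 in C+ against 435, 325 and 371 in C-. It passed the filter mainly through the negative populations, in which it is high, and all R+ and 2 of 3 C+ signals were under the threshold of 107. It is 1 of the 2 genes counted above as lower in each domain, so those counts lean on signals under the threshold. Its fold and p are not given. Another Hs3st3b1 probe set was not called in R+ against R-, where its mean was higher in R+ (115 against 92). It was called lower in C+ against C-, but with signals of 27, 15 and 41 in C+, under the threshold, against 131, 170 and 184 in C-. It passed the filter on 5 arrays, mainly those of C-, so its call has the same limit. A further Hs3st3b1 probe set was called in neither. The calls of Hs3st3b1 were lost under 4 and 1 of 26 alternatives. Hs3st2 was the higher one in C+ against C- (0.85 ± 0.24, adjusted p = 0.0421), a call lost under 12 of 26 alternatives.

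Between the domains Hs3st4 stood out in both populations. It read 908 in R+ against 206 in C+ on average (2.12 ± 0.24, adjusted p = 0.000205), where 4.87% of all genes were called. It averaged 530 in R- against 163 in C- (1.64 ± 0.24, adjusted p = 0.00279), where 2.09% were. The second call was lost with the beta-actin ratio as a covariate and without all replicate 2 or all replicate 3 arrays. By 1 probe set per gene Hs3st4 was the only one called of the other enzymes of synthesis and modification in either comparison. The block added 1 lower in R+ against C+, and 1 higher and 1 lower among the linkage enzymes.

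None of 4 measured genes that supply sulfate and sugar donors was called by limma in any of the 5 comparisons, although the unadjusted p was under 0.05 for Slc35b3 in R+ against C+ and for Slc35b2 in R- against C-. The block called 1 in R+ against C+. Papss1, which makes the sulfate donor, differed by 0.05 in R+ against R- and -0.03 in C+ against C-. Of 6 measured breakdown enzymes, 1 was called, the lysosomal glucuronidase Gusb, at 0.64 ± 0.16 in C+ against C- (adjusted p = 0.0257), lost under 9 of 26 alternatives. The block called 2 there, 1 in R+ against R- and 1 in R+ against C+.

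Of 12 measured core protein genes, 2 were higher and 3 lower in R+ against R-, where 10.5% of all genes were called. The glypicans Gpc4 (-1.36 ± 0.29, adjusted p = 0.0101) and Gpc6 (-1.40 ± 0.31, adjusted p = 0.0112) and the collagen Col18a1 (-1.27 ± 0.30, adjusted p = 0.0175) were lower. Another glypican, Gpc3 (1.33 ± 0.31, adjusted p = 0.0177), and the syndecan Sdc3 (1.00 ± 0.25, adjusted p = 0.0249) were higher. Other probe sets of Gpc6, Col18a1 and Sdc3 were not called. In C+ against C- 2 were lower, Gpc4 (-1.80 ± 0.29, adjusted p = 0.00128) and Col18a1 (-1.54 ± 0.30, adjusted p = 0.00459), and 0 were higher, with 11.1% of all genes called, and 3 were lower and 1 was higher with the block. In R+ against C+ Gpc3 was the 1 called (1.25 ± 0.31, adjusted p = 0.0428), lost under 14 of 25 alternatives, and the block called 2 higher and 1 lower. In R+ against R- the calls of Gpc3, Sdc3, Gpc4, Gpc6 and Col18a1 were lost under 6, 8, 4, 5 and 5 of up to 26 alternatives, each time including the loss of single arrays, and in C+ against C- those of Gpc4 and Col18a1 under 1 and 2.

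The sister pathway of chondroitin and dermatan sulfate had 12 measured enzymes, of which Dsel and Chst15 were called in both domains, against 10.5% of all genes in R+ against R- and 11.1% in C+ against C-. Dsel, an epimerase of dermatan sulfate, averaged 1192 in R+ and 564 in R- (1.07 ± 0.16, adjusted p = 0.000550), and 2352 in C+ and 489 in C- (2.24 ± 0.16, adjusted p = 7.33e-07). Chst15, a sulfotransferase of chondroitin sulfate, averaged 265 in R+ and 1176 in R- (-2.12 ± 0.21, adjusted p = 1.70e-05), and 223 in C+ and 1407 in C- (-2.63 ± 0.21, adjusted p = 2.19e-06). Dsel was the only listed gene outside the markers with a called difference of differences (-1.17 ± 0.22, adjusted p = 0.0296), where 0.817% of all genes were called; the block also called 1 core protein gene.

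**Figure D4:**
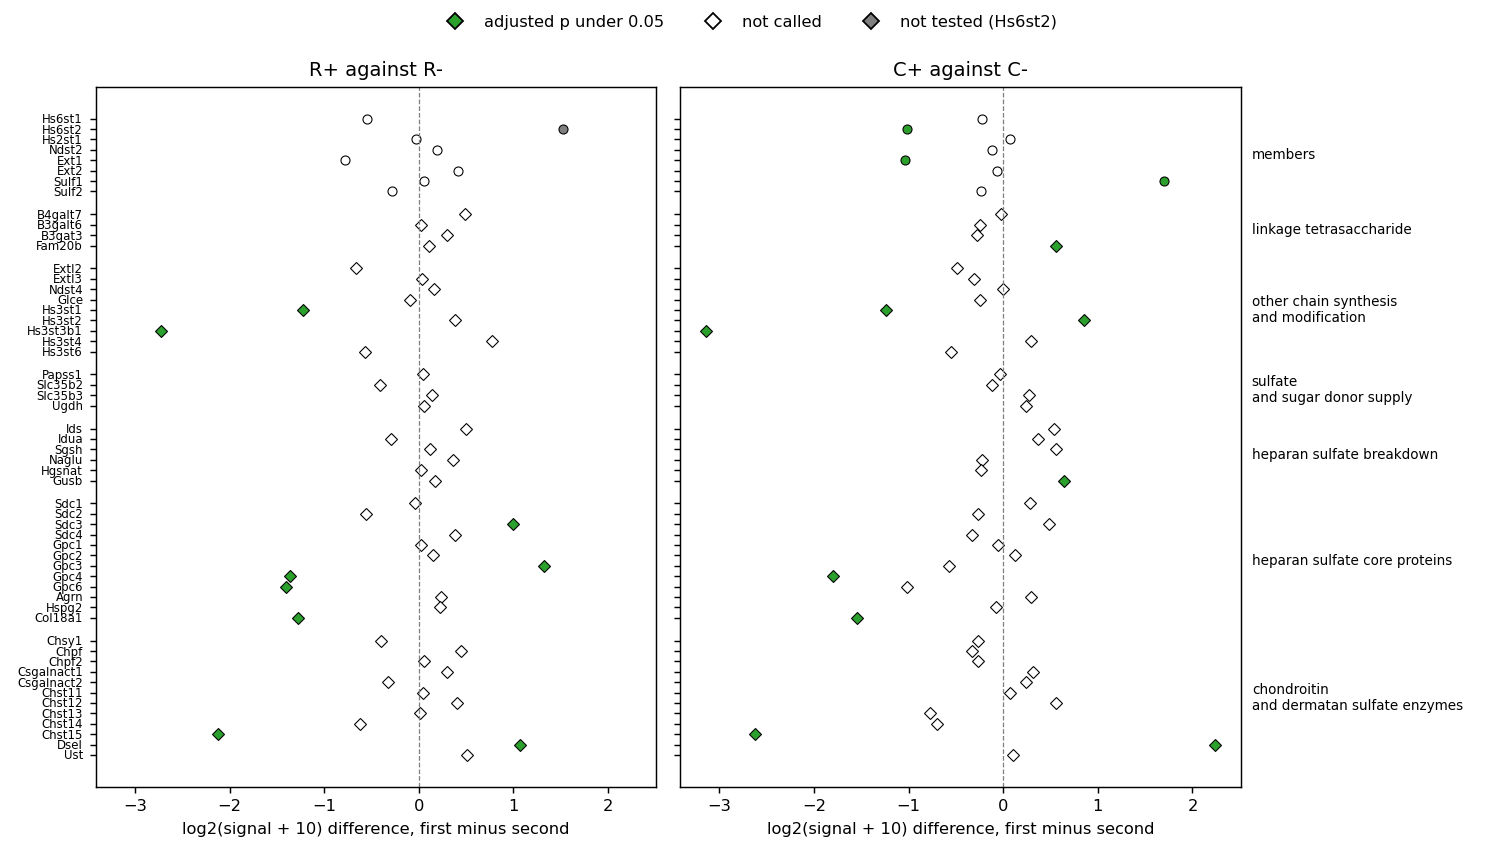
Differences of log2(signal + 10) for members (circles) and for the other fixed lists (diamonds), 1 probe set per gene, in R+ against R- and in C+ against C-; green was called, white was not, and grey was not tested. Hs3st1, Hs3st3b1, Gpc4, Col18a1 and Chst15 are called lower and Dsel is called higher in both panels; the position of Hs3st3b1 rests on signals under the filter's threshold.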

How the data were processed

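Per the submitters' processing notes, the deposited values are MAS5 signal intensity; the sources used here give no version or settings. Per the labels' protocols, RNA from 200000 sorted cells was amplified once. The authors' intensity values are linear and whole, and averaged 500 on every array once 2% was trimmed from each end. No detection calls were used here, so presence was judged only by the filter, a signal above 107 on 3 arrays or more. Groups of 3 arrays limit the precision.

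Of 45101 probe sets 64 controls were left out. Symbols came from the probe table; 34741 of 34945 probe sets with 1 symbol matched RefSeq by Entrez number and 0 symbols changed. The array names no genome build, so coordinates are given for RefSeq promoters only, of which 7 members had 9. Tests used limma 3.58.1 in R 4.3.3: 1 mean per group on log2(signal + 10) over 12 arrays, eBayes with trend, two-sided, adjusted per comparison over 26061 probe sets. Genes were counted by their brightest probe set (_x_at last; 12845 genes). The procedure was tested on simulated data with independent noise on each array. Those data lacked the shared deviations of same-numbered arrays given below, so they do not give the error rate here. Figures used matplotlib 3.10.9.

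Named were all members, up to 4 called and non-overlapping genes per list and comparison by size, and the 5 genes most correlated with Hs6st2; Sdc3 was added after its values were seen. Members and lists were chosen with earlier results of these data known. No label ties replicates to litters; the p-values therefore reflect only how these samples spread, which may be technical. Same-numbered arrays deviated together (correlations 0.169 to 0.597 over 18 pairs, all over 0.1). For pairs differing in number and group they were -0.468 to 0.318, with 7 of 36 over 0.1. Only the replicate 1 pairs (0.417 to 0.597) lay above all of these. Replicate 2 (0.169 to 0.239) and replicate 3 (0.19 to 0.272) pairs did not, so the block is less well founded for them. Blocked values are given where they change a call. Alternatives varied the offset, filter, scaling, moderation, probe sets, arrays, block and beta-actin covariate. Leaving out all arrays of a replicate number was chosen after seeing the data.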

Additional observations from a re-analysis of the deposited data

Results flagged for a closer look

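Hs6st2 had a difference of differences (YFP-positive over YFP-negative, rostral minus caudal) of 2.54 on the log2 scale. Its height in R+ chose the gene and so fixed the rostral direction, and the value was not tested. On the caudal side, which holds no R+ array, all its C+ arrays lay below all its C- arrays, which fixes 3 of 3 pairs as lower. A choice made against C+ would favour that direction too. Sulf1 on 1436319_at had a difference of differences of -2.18, which missed the threshold (limma adjusted p = 0.0688). All its C+ arrays lay above all its C- arrays, while its rostral pairs were -0.70, -0.07 and -0.09. On the brighter Sulf1 probe set, 1438200_at, the rostral pairs were -0.43, 0.31 and 0.27, so the 2 probe sets do not share a rostral direction. Dsel had a called difference of differences of -1.17: it was higher in YFP-positive cells of both domains, and less so rostrally. Groups of 3 arrays are too small for a check of single outlying arrays.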

How the results depend on the processing

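Under 26 alternatives at most, 0 of the 4 called member differences changed sign. Differences that were not called could do so, such as Hs6st2 in R- against C- (0.21, and -0.35 at the lowest). Of 1827 values for 72 single member results 19 lost and 35 gained a call. Of 570 for the other named genes 96 lost one. Member probe sets called in R+ against R- numbered 0, but 2 with 1 probe set per gene tested, with the filter at 2 times the median, with the beta-actin covariate and with the replicate block, and 1 with only the groups compared; leaving out arrays gave 0 to 1. In C+ against C- the 4 became 2 with arrays scaled to 1 median and with only the groups compared, and 0 to 4 when arrays were left out (0 without all replicate 2 or all replicate 3 arrays, which leaves 8). In R+ against C+ the 0 became 4 with the replicate block and 0 to 4 when arrays were left out, with 4 reached without C+ replicate 1. In R- against C- the 0 became 1 with only the groups compared and with the replicate block, and 0 to 1 when arrays were left out. For the difference of differences the 0 became 1 with arrays scaled to 1 median and with the beta-actin covariate, 2 with the replicate block, and 0 to 2 when arrays were left out. The block ended no call given above. Over all probe sets the block raised the calls to 3740, 4279, 4327, 1770 and 419, against 1999, 2136, 984, 389 and 136. The beta-actin covariate left 227 in R+ against C+ and 191 in R- against C-; scaling to 1 median left 537 in R+ against C+, only the groups compared 523, and no trend 639 there and 81 for the difference of differences. Leaving out arrays gave 646 to 2229, 674 to 2512, 132 to 2691, 74 to 480 and 12 to 214. Scaling to 1 median turned the share of higher calls to 48.1% from 35.7% in R- against C-, and to 26.7% from 36.8% for the difference of differences. Causes were not tested. Dim signals limit Hs6st3 and the second Ext1 probe set.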
